A study of Arabidopsis thaliana with 4 samples.

Results

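The clade A protein phosphatases 2C of Arabidopsis thaliana were taken as 9 genes by locus: ABI1 (AT4G26080), ABI2 (AT5G57050), HAB1 (AT1G72770), HAB2 (AT1G17550), AHG1 (AT5G51760), PP2CA (AT3G11410), HAI1 (AT5G59220), HAI2 (AT1G07430) and HAI3 (AT2G29380). Their array probes were found through the RefSeq transcript named for each spot, and all 9 were among the 20410 genes tested. Whole 14-day-old seedlings of the Columbia (Col-0) wild type, grown in short days (8 h light, 16 h dark), were placed on wet filter paper with 300 mM NaCl. Seedlings taken after 2 h and after 5 h were each run on 2 arrays, as biological replicates by the design text. On every 2-colour array the salt sample was labelled with Cy5 and untreated seedlings (0 h) with Cy3. Both times and the 0 h sample shared genotype, age, medium with sucrose and day length.

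Clade A phosphatases are the negative arm of abscisic acid signalling. Without the hormone they dephosphorylate and silence SnRK2 kinases. Hormone-bound receptors of the PYR/PYL family bind and inhibit most of the phosphatases, which frees the kinases to phosphorylate transcription factors and ion channels. Several of their own genes are known to be induced by abscisic acid, so that the pathway makes its own brake. By sequence the clade has a branch of ABI1, ABI2, HAB1 and HAB2 and a branch of AHG1, PP2CA and the HAI genes.

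Median spot signals were 342 to 372 in Cy5 (salt) and 252 to 282 in Cy3 (0 h), over backgrounds of 52.5 to 54 and 33 to 37.5. All 4 arrays lay on 1 slide and 0 spots were saturated. Log2 ratios correlated across 20409 genes, which are not independent replicates, at 0.9897 for the pair of 2 h arrays and 0.9954 for the 5 h pair, and at 0.8027 to 0.805 across times. All 4 leaf markers (RBCS1A, LHCB1.1, RCA and PSBO1) and all 5 root markers (CASP1, COBL9, EXPA7, PHO1 and IRT1) were well above background at 0 h. The 5 seed markers CRA1, CRU3, OLEO1, OLEO2 and PER1 also were, with a summed normalized intensity of 1156 to 1167 at 5 h and 441 to 521 at 2 h, against 21498 to 22501 at 0 h, and OLEO1, OLEO2 and PER1 were not well above background at 2 h. In whole seedlings, fewer cells of a type and less RNA per cell cannot be told apart. No array of seedlings moved to paper without NaCl was analysed, so salt cannot be told apart from the transfer or, unless sampling was matched, from time of day.

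The first comparison asked how the phosphatase transcripts differed after 2 h of salt. Of the 9 genes 7 rose, 6 of them at least 2-fold, HAI3 fell slightly, and AHG1 lay too near background to be read. The background was 81.9% of all genes called in either direction, 41.4% called higher, 40.5% called lower, 9.75% called higher by at least 2-fold and 2.33% called lower by at least 2-fold. A call alone is therefore near the rate of all genes, while the median log2 change of the members was 1.81, against 4.5e-05 over all genes tested. Loess within arrays centres the ratios, so a median near 0 over all genes is set by the normalization. Values are log2 ratios of Cy5 (salt) over Cy3 (0 h), as means over 2 arrays per time with limma's moderated SE. That SE pools a gene's spread over both times and shrinks it toward that of all genes. It is the same at 2 h and 5 h and does not measure the spread of either pair of arrays. For HAI2 at 2 h the pair's SD was 0.52, against an SE of 0.15.

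ABI1 and ABI2 are the founding members, known from dominant mutants that do not respond to abscisic acid. ABI1 had a normalized intensity of 32253 and 32293 after 2 h of salt, against 7926 and 7314 at 0 h on the same arrays. Its log2 ratio was 2.08 ± 0.042 (4.24-fold, adjusted p = 3.56e-09). ABI2 had 4585 and 4402 after 2 h of salt, against 1906 and 1762 at 0 h, a log2 ratio of 1.29 ± 0.035 (2.45-fold, adjusted p = 1.76e-08). In both genes every salt value lay above every 0 h value.

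HAB1 and HAB2, the homologues of ABI1 and ABI2, differed in how far they rose. HAB1 had 4559 and 4364 after 2 h of salt, against 1303 and 1242 at 0 h, with log2 ratios of 1.81 on each array (3.51-fold, SE 0.034, adjusted p = 2.24e-09). HAB2 had 2430 and 2516 after 2 h of salt, against 1441 and 1529 at 0 h, a log2 ratio of 0.74 ± 0.035 (1.67-fold, adjusted p = 4.51e-07). HAB2 was the smallest of the 7 rises and the one under 2-fold.

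PP2CA (also AHG3), which acts in germination and in guard cells, is the one gene here with several probes. Its brightest probe read 27796 and 28515 after 2 h of salt, against 5914 and 6996 at 0 h. The log2 ratio was 2.13 ± 0.051 (4.38-fold, adjusted p = 8.43e-09). The other PP2CA probes averaged 2.17 and 2.25, so the 3 probes lay within a narrow range.

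HAI1 (also SAG113), HAI2 and HAI3 were named as highly induced by abscisic acid, and HAI1 is also known from leaf senescence. HAI1 had 11163 and 10380 after 2 h of salt, against 1827 and 1913 at 0 h, a log2 ratio of 2.53 ± 0.05 (5.76-fold, adjusted p = 3.19e-09). It was the largest rise of the 9, and 370 of all genes rose further. HAI2 (also AIP1 or HONSU), which binds the potassium channel AKT1 and acts in seed dormancy, had 1192 and 737 after 2 h of salt, against 240.4 and 247 at 0 h.

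The HAI2 log2 ratios of 2.31 and 1.58 on the 2 h arrays were the widest pair of any member (mean 1.94 ± 0.15, adjusted p = 6.4e-06), so that its 2 h value depends on the array: it is 2.31 without replicate 2 and 1.58 without replicate 1. HAI3 had 117 and 124 after 2 h of salt, against 137 and 145 at 0 h, in both channels well above background. Its log2 ratio was −0.22 ± 0.034 (1.17-fold lower, adjusted p = 0.000434), while the Feature Extraction ratio gave −0.79. Its sign at this time was opposite to that of HAI1 and HAI2, and 6054 of all 20410 genes fell further.

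AHG1, a phosphatase known mainly from seeds and germination, was not well above background in Cy5 or Cy3 on either 2 h array. Its 2 h intensities were 68.8 and 65, against 78.7 and 73.2 at 0 h. The fit called it lower (adjusted p = 0.00147), but with both channels at background no fold is given and it is not counted as a fall.

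In order of the 2 h change, HAI1 came first, and PP2CA, ABI1, HAI2 and HAB1 followed with array values that overlapped from each gene to the next. ABI2 and HAB2 were each separate from the gene before, and HAI3 was last with AHG1. The branch of ABI1, ABI2, HAB1 and HAB2 spanned 0.74 to 2.08 and the branch of AHG1, PP2CA and the HAI genes −0.22 to 2.53, so neither branch lay above the other.

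**Figure D1:**
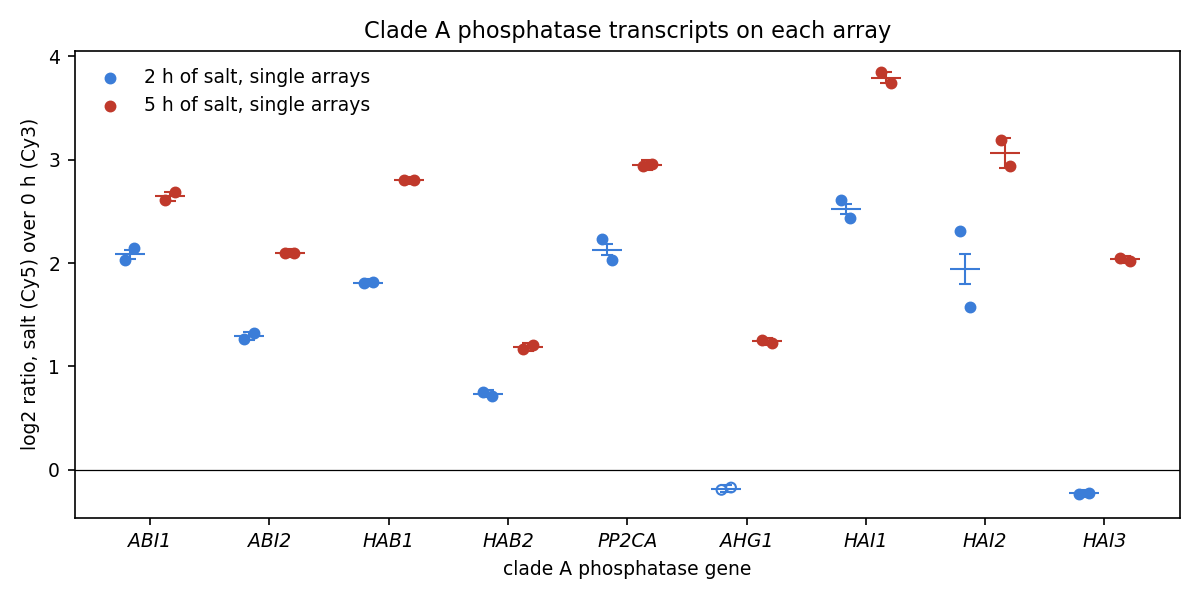
Log2 ratio of salt (Cy5) over 0 h (Cy3) for each of the 9 genes (x axis); dots are single arrays (2 per time, blue for 2 h and red for 5 h), dashes the mean with limma's moderated SE, and open dots mark AHG1 at 2 h, which lay at background. Every 5 h dot lies above the 2 h dots of its gene in these unscaled ratios, and HAI3 and AHG1 are below 0 at 2 h only.

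After 5 h of salt all 9 genes rose, each at least 2-fold. Their median log2 change was 2.65, against −0.000365 over all genes tested, again centred by loess. The background was 87.7% of all genes called, 44.1% called higher, 43.7% called lower, 13.6% called higher by at least 2-fold and 7.28% called lower by at least 2-fold. HAI1 led at 13.9-fold and HAB2 was last at 2.28-fold.

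HAI1 had 27545 and 23406 after 5 h of salt, against 1913 and 1753 at 0 h on the same arrays, a log2 ratio of 3.79 ± 0.05 (adjusted p = 2.96e-10), and 127 of all genes rose further. HAI2 had 2552 and 1868 after 5 h of salt, against 279 and 244 at 0 h, a log2 ratio of 3.06 ± 0.15 (8.37-fold, adjusted p = 2.6e-07). HAI3 had 666 and 628 after 5 h of salt, against 161 and 155 at 0 h, a log2 ratio of 2.03 ± 0.034 (4.1-fold, adjusted p = 8.63e-10). All 3 HAI genes were now up, the salt values of each clear of its 0 h values.

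PP2CA had 42046 and 39581 after 5 h of salt, against 5489 and 5092 at 0 h, a log2 ratio of 2.95 ± 0.051 (7.72-fold, adjusted p = 9.53e-10). Its other probes averaged 2.84 and 2.68. AHG1 had 213 and 182 after 5 h of salt, well above background on both arrays, against 88.8 and 77.9 at 0 h, where 1 of all 4 arrays was above background. AHG1 was called higher (adjusted p = 1.16e-08), but with so dim a 0 h signal no exact size is given: its log2 ratio ran from 1.09 to 3.26 over the ways of making the ratio.

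In the other branch, ABI1 had 46536 and 44598 after 5 h of salt, against 7632 and 6946 at 0 h, a log2 ratio of 2.65 ± 0.042 (6.26-fold, adjusted p = 6.76e-10). HAB1 had 8416 and 8727 after 5 h of salt, against 1209 and 1254 at 0 h, a log2 ratio of 2.8 ± 0.034 (6.96-fold, adjusted p = 2.01e-10). ABI2 had 7525 and 7542 after 5 h of salt, against 1760 and 1759 at 0 h, a log2 ratio of 2.1 ± 0.035 (4.28-fold, adjusted p = 8.4e-10). HAB2 had 3552 and 3368 after 5 h of salt, against 1581 and 1455 at 0 h, a log2 ratio of 1.19 ± 0.035 (2.28-fold, adjusted p = 1.69e-08). In each of the 4 genes both salt values lay above all 4 of its 0 h values, and HAB2 again rose least of the branch.

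In order of the 5 h change, leaving out HAI3 and AHG1, the genes ran HAI1, HAI2, PP2CA, HAB1, ABI1, ABI2 and HAB2. HAI2 and PP2CA overlapped between arrays, and HAI2 ran from 2.68 to 3.48 over the ways of making the ratio. The dim genes HAI3 and AHG1 have no settled place in that order. HAI3 was 0.06 below ABI2 (SE 0.049) at a log2 ratio of 2.03, but 2.74 by the Feature Extraction ratio, against 2.55 for ABI1 and 1.99 for ABI2. AHG1 was 3.17 by that ratio, against 2.92 for PP2CA. The 0 h level of a gene varied between the 4 arrays by a ratio of 1.08 (HAB1) to 1.37 (PP2CA), well under the 5 h rise of any member. The unnumbered 0 h material was counted as 1 sample, so its variation from seedling to seedling is not in these errors. Dyes were not swapped, and dye and salt cannot be told apart within a time.

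**Figure D2:**
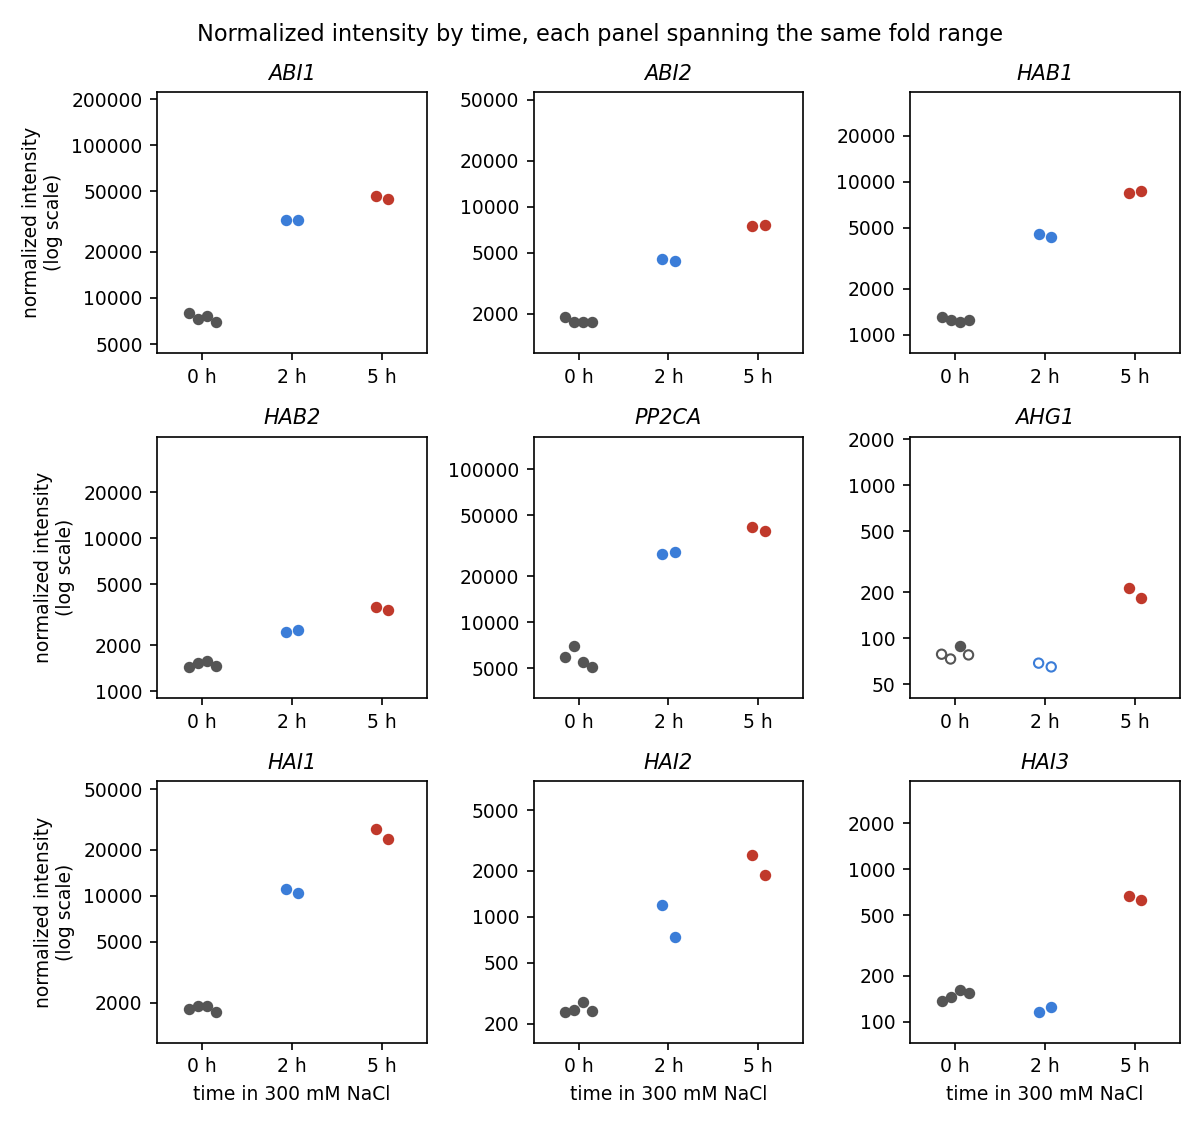
Normalized intensity (log scale) of the probe of each gene at 0 h (grey, Cy3 on 4 arrays), 2 h and 5 h (Cy5, 2 arrays each); open dots were not well above background, every panel spans the same fold range, and heights are not comparable between genes. Within its own panel each gene is higher at 5 h than at 0 h, and the AHG1 dots are open at 2 h and on 3 of 4 arrays at 0 h.

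The third comparison set 5 h against 2 h of salt, in which a gene's dye bias drops out and so does the control if 1 sample was shared. All 9 genes were higher at 5 h than at 2 h, and 4 at least 2-fold, except that with arrays scaled to an equal spread 6 of 9 were called higher, 2 of them at least 2-fold, and ABI1 turned slightly negative. The median difference was 0.99 on the log2 scale (0.38 with scaled arrays), against −0.034 over all genes tested. Without replicate 2 at 2 h or replicate 1 at 5 h, 3 genes were higher at least 2-fold. The background was 72.5% of all genes called, 33.6% called higher, 38.9% called lower, 4.33% called higher by at least 2-fold and 3.43% called lower by at least 2-fold.

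HAI3 had 666 and 628 at 5 h, against 117 and 124 at 2 h, a difference of log2 ratios of 2.26 ± 0.048 (adjusted p = 6.26e-08), and 78 of all genes gained more. The mean Cy5 level of AHG1 at 5 h was 2.53-fold over its 2 h level, set no lower than the detection floor. That floor is the dimmest probe called well above background on an array. AHG1 lay at background at 2 h, so that its gain cannot be ranked against that of HAI3. These are the members that had not risen at 2 h. HAI1 gained 1.27 ± 0.071 and HAI2 1.12 ± 0.21 (adjusted p = 2.81e-06 and 0.00171). Leaving out 1 array at a time, the HAI2 gain ran from 0.76 to 1.49, with the lowest value without replicate 2 at 2 h.

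HAB1 gained 0.99 ± 0.048, PP2CA 0.82 ± 0.072, ABI2 0.80 ± 0.05, ABI1 0.56 ± 0.06 and HAB2 0.45 ± 0.05 (adjusted p from 1.36e-06 to 0.000101). When the arrays' ratios were scaled to an equal spread, ABI1 turned to −0.07 (adjusted p = 0.338) and PP2CA and HAI2 no longer passed (0.14 and 0.46, adjusted p = 0.149 and 0.123). With the same scaling HAI1 gained 0.43, HAB1 0.38, ABI2 0.35 and HAB2 0.20, and HAI3 2.04. Over all 14 alternatives the adjusted p ran from 2.48e-06 to 0.338 for ABI1, from 2.71e-07 to 0.149 for PP2CA and from 2.34e-07 to 0.123 for HAI2. That scaling removes a spread of ratios that was wider at 5 h (0.692 and 0.7, as SD from the median absolute deviation) than at 2 h (0.476 and 0.475). The normalized intensities of ABI1 were 46536 and 44598 at 5 h, against 32253 and 32293 at 2 h. They were made from the unscaled ratios, so they are no separate test of the scaling.

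**Figure D3:**
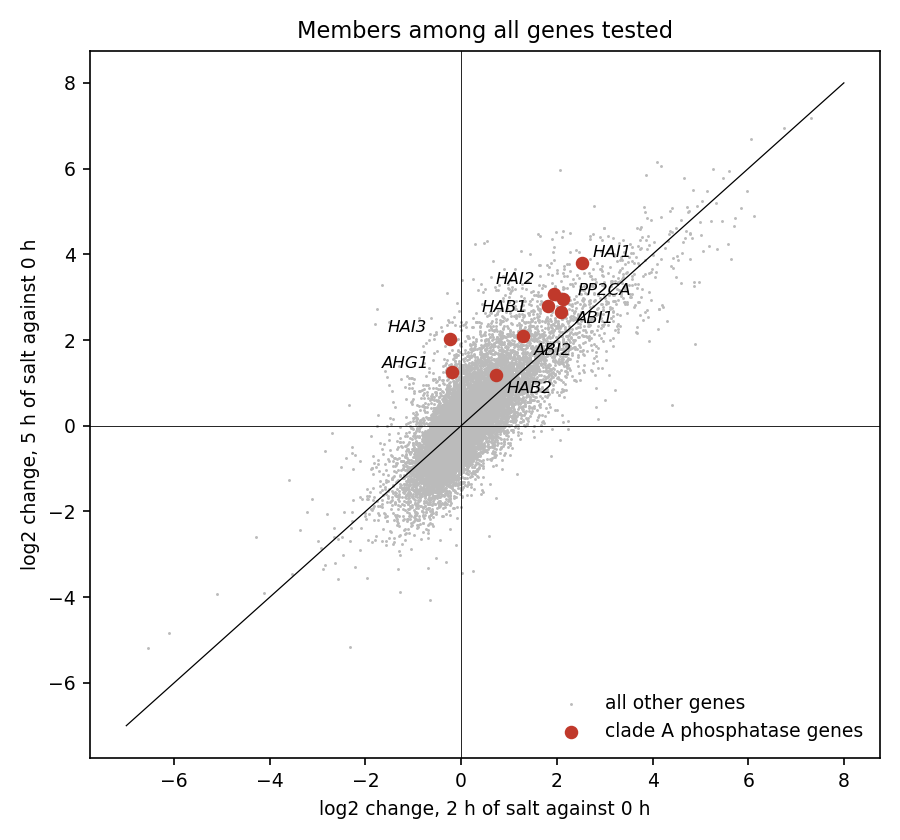
Log2 change at 2 h (x axis) against log2 change at 5 h (y axis), each over 0 h, for all genes tested (grey) and the 9 clade A genes (red), with the line of equal change. All red points lie above the line (ABI1 would not with arrays scaled to an equal spread), and HAI3 (−0.22 and 2.03) and AHG1 lie left of 0 on the x axis. Both axes share the 0 h sample.

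The 5 genes outside the family that lay nearest to the members' median profile over the 4 arrays, by Euclidean distance of log2 ratios (0.16 to 0.216) were ASG4, AT4G22470, IAA30, AT5G42050 and UGT73C7. ASG4, for example, had 1.71 and 1.58 at 2 h and 2.73 and 2.64 at 5 h.

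The other genes of the pathway were counted from lists. Of all genes tested, 41.4% were called higher and 40.5% lower at 2 h, and 44.1% and 43.7% at 5 h. At 5 h against 2 h the shares were 33.6% and 38.9%. Enrichment of the lists' counts over these shares was not tested. Of 10 measured receptor genes, 7 rose and 2 fell at each of 2 h and 5 h, with medians of 0.42 and 0.49. The genes that fell were not all the same: PYL1 fell at 2 h only and PYL6 at 5 h only. PYL7 (3.17 ± 0.038 at 2 h and 2.9 ± 0.038 at 5 h), PYL9 (2.13 and 1.62) and PYL5 (1.70 and 1.83) led, and PYL4 stood at −0.40 and −0.92. PYL10 was dim at 0 h on all 4 arrays. Its mean level was 1.72-fold (2 h) and 1.39-fold (5 h) over its 0 h level, set no lower than the detection floor. From 2 h to 5 h, 2 receptor genes gained and 5 lost, with PYR1 at 0.36 ± 0.049 and PYL4 at −0.52 ± 0.055.

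Among the 10 SnRK2 kinases, a family that includes substrates of the phosphatases, 2 rose and 6 fell at 2 h (median −0.14). At 5 h, 5 rose and 4 fell (median 0.11). SNRK2.7 rose by 1.50 ± 0.037 at 2 h and by 2.68 ± 0.037 at 5 h, and SNRK2.9 stood at −1.09 ± 0.034 at 2 h. OST1, the guard cell kinase, did not pass at 2 h (−0.04 ± 0.035) and rose by 0.94 ± 0.035 at 5 h. SNRK2.5 stood at 0.63 at 2 h and −0.81 at 5 h. From 2 h to 5 h, 7 kinases gained and 2 lost.

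Of the 5 ABF and ABI5 transcription factors that act below the kinases, 4 rose and 1 fell at 2 h (median 0.78), 4 rose at 5 h (median 1.83), and all 5 gained from 2 h to 5 h. ABF3 rose by 1.40 ± 0.038 at 2 h and 2.43 ± 0.038 at 5 h, and ABI5 by 1.59 and 2.32. Of 10 genes of abscisic acid synthesis and breakdown, 7 were higher and 3 lower after 2 h, 9 were higher and 1 lower after 5 h, and 9 gained between the times. NCED3, of the committed synthesis step, rose by 3.27 ± 0.053 and 3.85 ± 0.053, and the breakdown gene CYP707A3 by 2.69 and 2.94.

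Of 12 output genes, 8 were higher and 3 lower after 2 h (median 2.12), and all 12 rose at 5 h (median 3.25) and gained between the times. RD20, a caleosin, rose by 4.17 ± 0.034 and 6.06 ± 0.034. The late embryogenesis gene EM6 (−1.01 at 2 h, 1.00 at 5 h), RD29B (−0.68 and 1.99) and the dehydrin RAB18 (−0.64 and 2.53) were lower at 2 h and higher at 5 h. RAB18 gained most of this list between the times, by 3.16 ± 0.054. HAI3 had the same order of signs (−0.22 and 2.03). The seed markers also fell at 2 h and gained by 5 h, while staying below 0 h. Their part in the values of these genes was not tested.

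Known partners of the phosphatases, such as ubiquitin ligases and binding proteins, had small medians: 7 of 10 rose and 1 fell at 2 h (median 0.18), and 9 rose at 5 h (median 0.30). RGLG1, a ligase that acts on PP2CA, rose by 0.98 ± 0.038 and 1.90 ± 0.038. DOG1, a seed dormancy protein that binds AHG1, fell by 0.71 ± 0.037 at 2 h and rose by 0.33 ± 0.037 at 5 h. Of 6 target genes, 1 rose and 2 fell at 2 h, 3 rose and 2 fell at 5 h, and none changed 2-fold, with the guard cell anion channel SLAC1 highest at 5 h (0.79 ± 0.04) and the potassium channel AKT1 lowest (−0.23 ± 0.043).

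Of 25 PP2C genes outside clade A, 19 rose and 6 fell, both at 2 h and at 5 h (medians 0.64 and 0.84). At each time 11 of the rises were at least 2-fold, against 9.75% (2 h) and 13.6% (5 h) of all genes. In each of these counts the genes were not all the same at the 2 times. At 5 h against 2 h, 12 were higher and 7 lower (median 0.12). With arrays scaled to an equal spread, an alternative for this list chosen after seeing the data, 5 were higher and 13 lower (median −0.17). The difference from clade A was not tested, and the gains of the other lists are from unscaled ratios. Among the other genes, AP2C1, a phosphatase of MAP kinases, rose by 2.55 ± 0.038 at 2 h and 1.67 ± 0.038 at 5 h. PP2C5 rose by 2.55 and 2.23. AT1G07160, at background at 0 h, had means 10.3-fold and 10.8-fold over its 0 h level, set no lower than the detection floor. APD7 of clade D fell by 0.11 ± 0.036 at 2 h and by 2.78 ± 0.036 at 5 h.

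**Figure D4:**
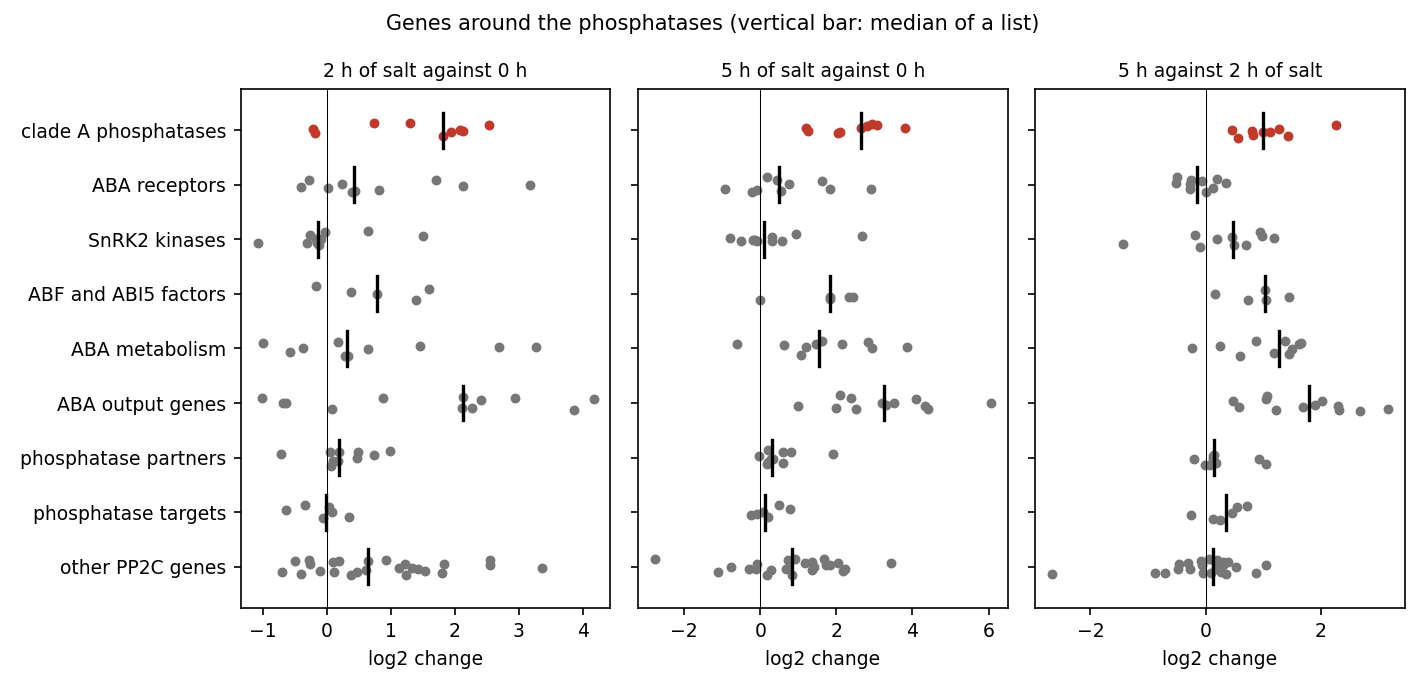
Log2 change of each measured gene (dots) in 9 lists (rows) for the 3 comparisons (panels, each with its own x scale), with the list's median as a bar; genes at background are drawn at their fitted value. The clade A medians are 1.81, 2.65 and 0.99, and no clade A dot lies below 0 in the panels of 5 h.

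Markers of tissues moved in the same samples. All 5 seed markers fell at both times and all 5 gained between the times, the direction that all 9 phosphatase genes had in that comparison in unscaled ratios. Of 5 root markers 3 fell at each time, 2 rose at 2 h and 1 rose at 5 h, with summed intensities of 3426 to 3451 at 5 h and 5297 to 5299 at 2 h, against 5349 to 5636 at 0 h. Of 5 guard cell markers, 4 were higher and 1 lower after 2 h, and 2 were higher and 1 lower after 5 h, with sums of 3177 to 3184 at 5 h and 3182 to 3397 at 2 h, against 2729 to 2945 at 0 h. All 4 leaf markers rose at 2 h and 3 at 5 h, with no change of 2-fold. The part of these shifts in the phosphatase values was not tested.

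**Figure D5:**
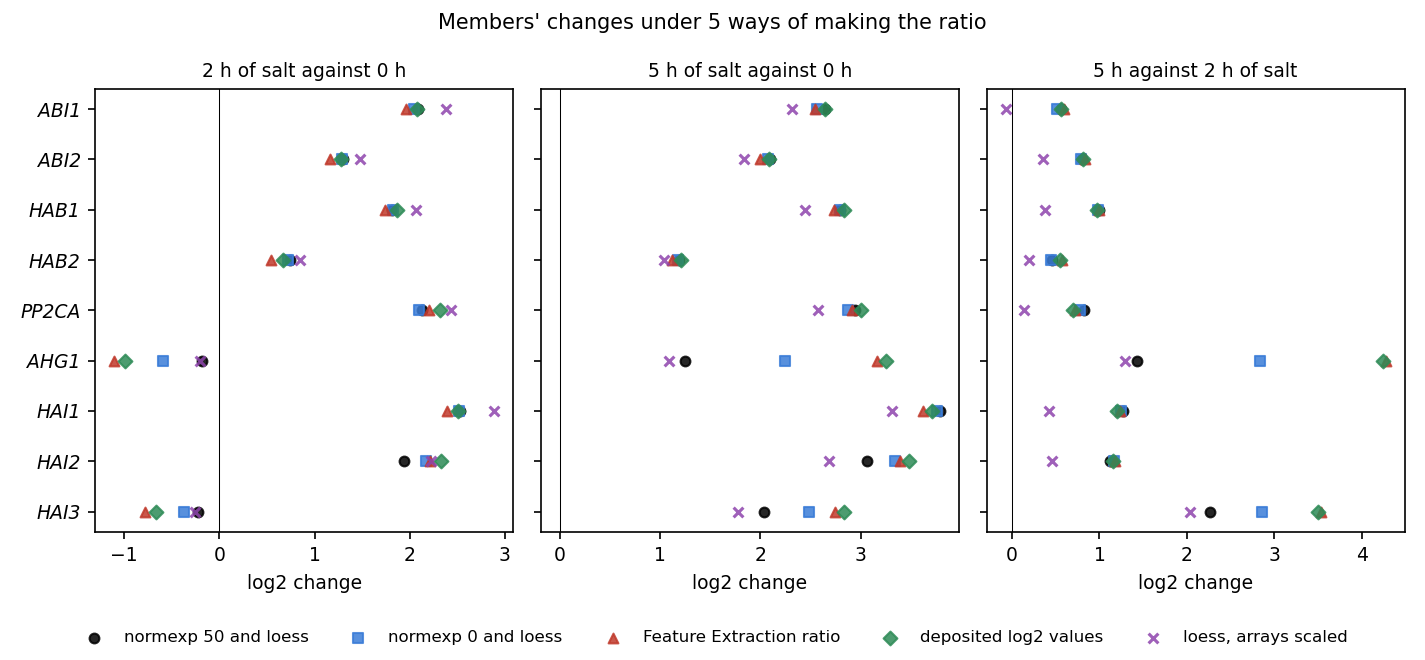
Log2 change of each gene (rows) in the 3 comparisons (panels, each with its own x scale) under 5 ways of making the ratio (symbols). The symbols lie closer for the bright genes and spread for the dim genes AHG1 and HAI3 (AHG1 at 5 h from 1.09 to 3.26). They spread less for HAI2 (2.68 to 3.48 at 5 h). The scaled arrays (crosses) shrink 5 h against 2 h, with ABI1 at −0.07.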

How the data were processed

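Per the file headers, the authors' scanner files, made with Agilent Feature Extraction 11.5.1.1 (9.3.2.1 in the submitters' processing notes), hold median spot and background intensity, intensity after background subtraction and dye normalization, and a log10 ratio of Cy5 over Cy3. The deposited series table holds log2 ratios whose shift per array is not stated. Ratios were computed with limma 3.58.1 in R 4.3.3 from median signals: normexp background correction (offset 50), loess within arrays with control spots at weight 0, and outlier spots (14 to 19 per array) left out. Of 43603 probes, 34348 matched 1 gene by RefSeq transcript in a TAIR10.1 table, used for names only. A probe was kept if the scanner software called it well above background for 0 h on 2 or more arrays, or for salt on each array of 1 time, and each gene was read from its brightest such probe. Intensities per channel were made comparable between arrays by Aquantile. Both times and their difference were tested with limma over all genes (2 residual and 5.44 prior degrees of freedom, Benjamini-Hochberg, threshold 0.05), a fit tested on simulated data. The design text gives 2 biological replicates, and the number of arrays limits the precision.

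The 9 members and the lists were chosen with earlier results of these data known. Genes named from a list are its highest and lowest called members, up to 3 each way, in any of the 3 comparisons; the 5 genes nearest to the members' median profile were also named. Genes of close sequence may share probe signal, which was not checked because no probe sequences were used here. Members' sequences were not used here.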

Additional observations from a re-analysis of the deposited data

Results flagged for a closer look

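Effects at 5 h and 2 h differed by limma's test for all 9 genes, as a log2 difference of 0.56 for ABI1, 0.80 for ABI2, 0.99 for HAB1, 0.45 for HAB2, 0.82 for PP2CA, 1.27 for HAI1, 1.12 for HAI2 and 2.26 for HAI3. For AHG1 the fitted difference of 1.43 is no measure of size, since it lay at background at 2 h, and over other ways of making the ratio it ran from 1.30 to 4.27. Each is the change at 5 h minus that at 2 h, with 2 arrays per time. With arrays scaled to an equal spread, the ABI1, PP2CA and HAI2 differences did not pass.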

How the results depend on the processing

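Across 14 alternatives, 372 of the 375 single-gene values kept their direction and their side of the threshold. The exceptions, all in 5 h against 2 h with arrays scaled to an equal spread, were ABI1, which reversed to −0.0723, and PP2CA and HAI2, which no longer passed (0.14 and 0.458). That scaling also left 6 of 9 members called and 2 in place of 4 at least 2-fold higher, a count chosen after seeing the data. The number of members called lower at 2 h was 1 in place of 2 with bright probes only, a filter that removes AHG1. Leaving out 1 array at a time kept all 9 members called in each comparison. Same-numbered deviations from the time means correlated at 0.0591, so no strong shift shared by replicate number was seen. That value cannot show whether same-numbered samples were paired in the experiment. With the replicate number as a block, 9 members were called in each comparison and 16812 genes at 2 h, in place of 16706. The Feature Extraction ratio moved the median of all genes by −0.145 at 2 h and −0.135 at 5 h, and called 6565 genes higher and 10354 lower at 2 h in place of 8447 and 8259. The offset of 50 draws ratios of dim probes toward 0 by construction, and with an offset of 0 the dim genes stood at 2.25 (AHG1) and 2.49 (HAI3) at 5 h. Signal over background thus limits the size, though not the direction at 5 h, for AHG1 and HAI3. HAI2, the next dimmest at 0 h, ran from 2.68 to 3.48 at 5 h over the ways of making the ratio.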
